A study of Rattus norvegicus with 10 samples.

Results

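The receptors for serotonin, dopamine, noradrenaline and adrenaline, histamine and acetylcholine were followed in the supraoptic nucleus after knock-down of Opn3, the gene of the light-sensitive receptor opsin 3. The genes were rows of the deposited table whose name began with Htr, Drd, Adra, Adrb, Chrm or Hrh and a number, or with Chrn and a subunit letter, of which 50, among 32623 genes in all, are analysed here. They comprised 13 serotonin, 5 dopamine, 6 alpha adrenergic, 2 beta adrenergic, 5 muscarinic and 4 histamine receptor genes and 15 nicotinic receptor subunits. A mean of at least 10 normalized counts over the 10 samples, where a normalized count is a read count divided by the size factor of its sample, was reached by 39 of them, and these were tested. The tested genes nearest to that limit were Chrna6 (mean 13.7) and Htr6 (15.6), and the nearest of the 11 untested genes were Chrna1 (8.40) and Htr2b (7.72).

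The animals were Sprague Dawley rats, all male, of an age that the labels do not give. In each rat the supraoptic nucleus of one side was injected with an adeno-associated virus whose short hairpin RNA targets Opn3 (shOpn3, 5 samples), and the opposite nucleus with one whose hairpin is non-targeting (shControl, 5 samples). Both groups therefore carried virus and hairpin, and no untreated nucleus is among the samples. The promoter that drove the hairpin, and the cell types that took up the virus, are not given in the sources used here. Single nuclei were taken 2 weeks later with a 1 mm punch from sections of 100 µm, so each sample is the nucleus of 1 animal together with whatever neighbouring tissue the punch held.

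The supraoptic nucleus consists mainly of magnocellular neurons that make vasopressin (Avp) or oxytocin (Oxt) and release it into the blood. Monoamines and acetylcholine reach these neurons from the brainstem, the tuberomammillary histamine neurons and nearby cholinergic cells. All but the nicotinic subunits and the serotonin type 3 subunits encode receptors that act through G proteins. Those coupled to Gq raise calcium through phospholipase C, those coupled to Gs raise cyclic AMP, and those coupled to Gi lower it and open potassium channels. Nicotinic and serotonin type 3 subunits assemble into cation channels of 5 subunits.

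Libraries held 33402693 to 39958578 reads in shControl and 33158341 to 37263244 in shOpn3. Depth did not separate the groups (exact permutation test, two-sided, p = 0.492). Opn3, the target, lay between 261 and 1007 normalized counts in shControl and between 145 and 289.7 in shOpn3 (log2 change -1.82 ± 0.320 SE; adjusted p = 0.00226). All 5 pairs of equal replicate number had less Opn3 in shOpn3, although shControl replicate 5 (261) lay below shOpn3 replicate 1 (289.7). Transcripts that define the labelled tissue were present in every sample, with Avp at 4619 normalized counts or more and Oxt at 3810 or more. Both were lower in shOpn3, and the groups did not overlap. Avp had a log2 change of -2.35 ± 0.426 SE (adjusted p = 0.00269), and Oxt one of -2.21 ± 0.328 SE (adjusted p = 0.000915).

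More receptor genes rose than fell. Of the 39 tested, 12 were higher and 1 was lower in shOpn3 at an adjusted p under 0.05, and 26 did not pass. Unless another tool is named, an adjusted p is limma's with the Benjamini-Hochberg method over all genes tested, and a log2 change is the difference of the group means of log2(normalized count + 1), given with its standard error (SE). The higher ones were Htr2a, Htr2c, Htr4, Htr5a, Htr5b, Drd1, Adra1d, Adra2a, Chrm1, Chrm3, Chrm4 and Chrna3, and the lower one was Chrna6. That is 33.3% of the receptor genes tested, beside 18.8% of the 15597 genes tested in all. For genes that were higher the shares were 30.8% of the receptor genes and 10.4% of all genes, and for genes that were lower the share of all genes was 8.48%. The median log2 fold change was 0.45 over the 39 receptor genes (range -2.08 to 2.40) and -0.02 over all genes tested. In such bulk tissue, more cells of a type and more RNA per cell cannot be told apart, for these genes and all below. These shares and medians are descriptions, and the receptor genes were not tested as a set.

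Of the 39 receptor genes tested, 8 showed no overlap between shControl and shOpn3, and all 8 were among the 13 that passed. They were Htr2a, Htr5a, Htr5b, Drd1, Adra1d, Adra2a, Chrm1 and Chrm3, each higher in shOpn3. Groups did not overlap for 15.3% of all genes tested, with shOpn3 above in 8.03% and below in 7.23%. An exact permutation test (two-sided, not adjusted, without regard to replicate number) gave each of these 8 genes p = 0.00794, the smallest that 5 against 5 samples allow. Groups that do not overlap always give this value, so it adds nothing to the lack of overlap. For the other 5 of the 13 genes that passed, the test gave at most 0.0317. All 5 pairs were higher in shOpn3 for 16 of the 39 genes, beside 18.7% of all genes tested. Across 23 alternative fits, 7 of the 13 genes passed in every fit that tested them (22 for Htr5b and 23 for the other 6): Htr2a, Htr5a, Htr5b, Drd1, Chrm1, Chrm3 and Chrm4. Leaving out shOpn3 replicate 3 reduced the count to 9 genes, all of them higher, with Chrna6 at an adjusted p of 0.0521. Leaving out shControl replicate 5, the control library with the lowest Opn3, gave 12 genes, 10 higher and 2 lower.

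Same-numbered samples deviated together, and the replicate number was therefore also fitted as a block, which removes what the samples of a number share. With it 21 of the 39 genes passed, 18 higher and 3 lower, beside 30.3% of all genes tested, 15.1% higher and 15.2% lower. All 13 genes above were among the 21. The other 8 were Htr1a, Htr1b, Adra2c, Hrh1, Hrh3 and Chrm5, which were higher, and Chrna5 and Chrna7, which were lower.

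**Figure D1:**
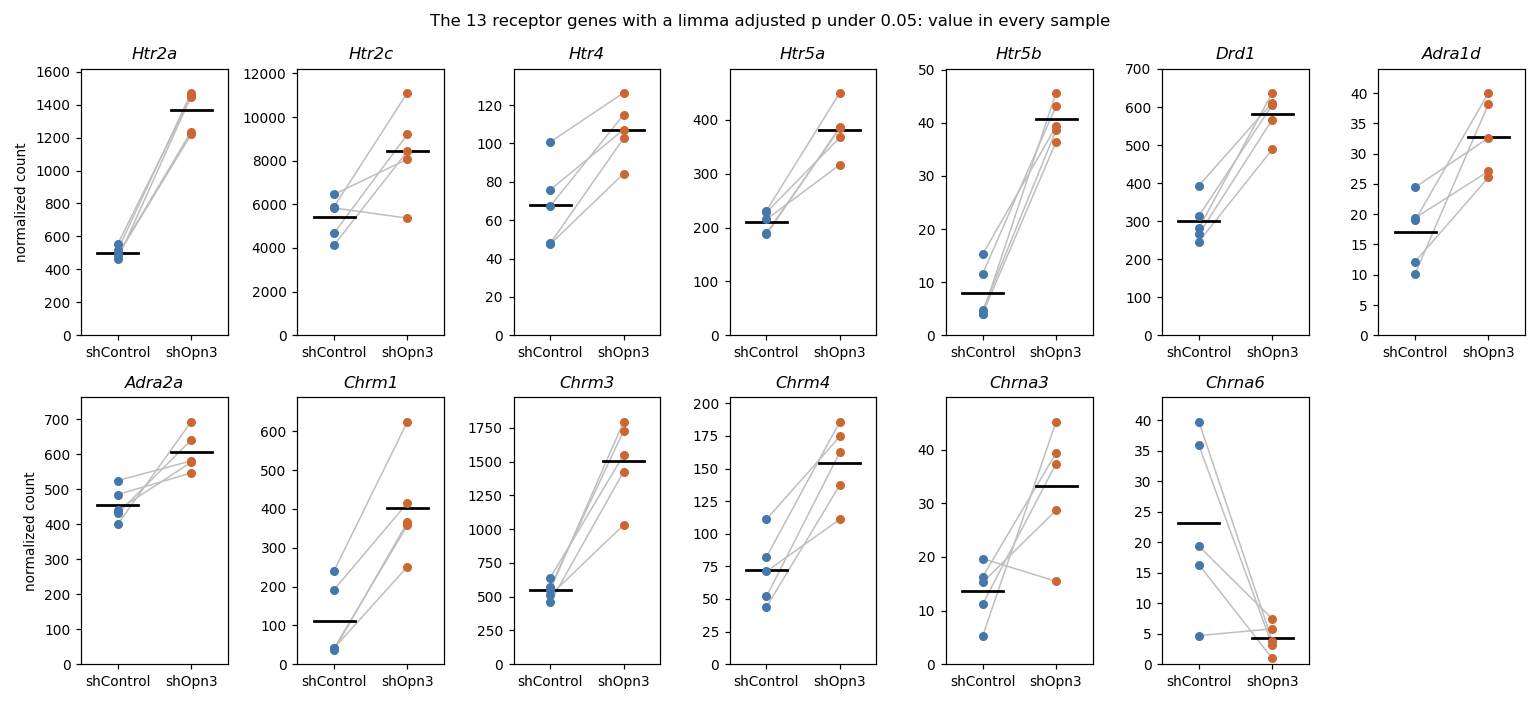
Normalized counts (vertical axes, each from 0) of the 13 receptor genes with a limma adjusted p under 0.05 in shControl (blue) and shOpn3 (orange). Points are samples (n = 5 each), black bars are group means, and grey lines join equal replicate numbers. Htr2a lay between 462 and 555 in shControl and between 1219 and 1472 in shOpn3, while the groups overlapped in Htr2c, Htr4, Chrm4, Chrna3 and Chrna6.

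Bases before the annotated starts of 4 genes are shown because these genes rose and have the lowest adjusted p among the genes that passed and have a promoter in the RefSeq table of build GRCr8. That table held 39 of the 50 receptor genes and 10 of the 13 that passed. Each sequence runs 5′ to 3′ over the 250 bases before the start, and capitals mark a GC box (GGGCGG or its reverse complement) or a CCAAT box (CCAAT or its reverse complement).
Chrm3, chr17:64696677-64696926, plus strand: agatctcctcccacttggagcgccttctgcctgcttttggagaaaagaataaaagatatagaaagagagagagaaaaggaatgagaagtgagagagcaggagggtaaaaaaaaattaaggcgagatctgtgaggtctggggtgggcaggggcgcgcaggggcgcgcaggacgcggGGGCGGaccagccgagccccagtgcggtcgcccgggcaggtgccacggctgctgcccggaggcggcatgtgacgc
Drd1, chr17:10546354-10546603, plus strand: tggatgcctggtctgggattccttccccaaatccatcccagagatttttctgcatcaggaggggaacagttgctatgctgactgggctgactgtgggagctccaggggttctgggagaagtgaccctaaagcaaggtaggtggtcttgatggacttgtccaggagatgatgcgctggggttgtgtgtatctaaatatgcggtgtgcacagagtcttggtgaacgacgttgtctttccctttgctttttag
Htr5a, chr4:8188486-8188735, minus strand: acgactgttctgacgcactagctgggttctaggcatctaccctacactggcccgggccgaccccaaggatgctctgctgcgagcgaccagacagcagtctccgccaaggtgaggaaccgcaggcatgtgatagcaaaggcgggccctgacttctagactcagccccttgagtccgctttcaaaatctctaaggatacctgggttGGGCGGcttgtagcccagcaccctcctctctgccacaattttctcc
Htr5b, chr13:35252587-35252836, minus strand: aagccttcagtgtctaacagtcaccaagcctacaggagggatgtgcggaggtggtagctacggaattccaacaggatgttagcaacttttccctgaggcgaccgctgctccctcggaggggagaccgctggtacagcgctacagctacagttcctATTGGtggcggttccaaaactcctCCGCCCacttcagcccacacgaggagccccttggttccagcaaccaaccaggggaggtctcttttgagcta
Chrm3 and Htr5a each held 1 GC box, Htr5b held 1 GC box and 1 CCAAT box, and Drd1 held neither. GC content was 60.0% for Chrm3, 51.2% for Drd1, 58.4% for Htr5a and 56.8% for Htr5b. Both strands were searched for 6 motifs, of which none contains another. GGGCGG was in 20 of the 39 receptor promoters (51.3%) and in 30.5% of all 33469 promoters of the table over the same 250 bases, and in 5 of the 10 whose gene passed. CCAAT was in 8 of 39 (20.5%, against 34.0% of all). The TATA box TATAAA was in 2 of 39 (5.13%, against 12.9%). Motifs of factors that are activated by cyclic AMP, calcium or growth signals were in 0 of the 39 promoters, namely TGACGTCA (cyclic AMP response element, 1.59% of all promoters), TGACTCA (AP-1 site, 4.05%) and GCGTGGGCG (EGR site, 0.478%). These are matches of letters in a short window and were not tested.

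Serotonin receptor transcripts were higher in shOpn3 for 5 of the 11 genes tested and lower for 0. Of all genes tested 10.4% were higher and 8.48% were lower. All 11 had a log2 fold change above 0, with a median of 0.62 and a range of 0.26 to 2.40. Htr2a (ENSRNOG00000010063), the Gq-coupled receptor on which serotonergic hallucinogens act, had 490.4, 518, 462, 486 and 555 normalized counts in shControl, listed here and below from replicate 1 to 5, and 1237, 1472, 1451, 1219 and 1449 in shOpn3. The lowest shOpn3 sample (1219) was far above the highest shControl sample (555), and the spread within each group was small. Htr2a rose from 502 ± 35.4 to 1366 ± 126 (SD, n = 5 each), a log2 change of 1.44 ± 0.0872 SE (adjusted p = 1.29e-05). It had the lowest adjusted p of all receptor genes, and its log2 fold change stayed between 1.41 and 1.48 over the 23 alternative fits.

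Htr2c (ENSRNOG00000030877), the related Gq-coupled receptor known for its part in appetite, had 4682, 5892, 6453, 5833 and 4130 normalized counts in shControl and 9202, 11109, 8071, 5366 and 8430 in shOpn3. The groups overlapped, because shOpn3 replicate 4 (5366) lay below 3 of the shControl samples. The mean rose from 5398 ± 957 to 8436 ± 2079 (SD, n = 5 each; log2 change 0.62 ± 0.178 SE; adjusted p = 0.0281). This call was lost when any of 6 single samples was left out, namely shControl replicate 1 or 5 or shOpn3 replicate 1, 2, 3 or 5, with adjusted p from 0.0561 to 0.0616. It was also lost without both samples of replicate number 1 or of number 5 and without shControl replicates 1 and 5, with an adjusted p of up to 0.114. In the RefSeq annotation Htr2c overlaps 5 microRNA genes and 1 small nucleolar RNA gene, and reads from them cannot be told apart from Htr2c reads here. Htr2b, the third Gq-coupled member, had 3 to 18 reads per sample and was not tested.

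Both type 5 receptors rose. Htr5a (ENSRNOG00000007066), a Gi-coupled receptor found mainly in the brain, had 228, 187, 232, 215 and 189.9 normalized counts in shControl and 367, 387, 450.4, 317 and 384 in shOpn3. It rose from 210.5 ± 21.0 to 381 ± 47.9 (SD, n = 5 each; log2 change 0.85 ± 0.116 SE; adjusted p = 0.000613), and the groups did not overlap. Htr5b (ENSRNOG00000002549), a receptor that rodents have kept and humans have lost, had 15.3, 4.07, 4.08, 4.68 and 11.6 in shControl and 39.3, 45.7, 36.4, 38.6 and 43.1 in shOpn3. Its level was near the detection limit in shControl replicates 2, 3 and 4, the lowest of them with 4 reads, and was even across the shOpn3 samples. From 7.95 ± 5.20 it rose to 40.6 ± 3.70 (SD, n = 5 each; log2 change 2.40 ± 0.343 SE; adjusted p = 0.000764), the largest log2 fold change among the receptor genes tested. The size of the change ranged from 1.90 to 2.98 over the 22 alternatives in which Htr5b was tested, and it passed in each of them.

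Htr4 (ENSRNOG00000019134), a Gs-coupled receptor, had 47.9, 101, 67.4, 75.8 and 47.5 normalized counts in shControl and 103, 126, 115, 107 and 84.2 in shOpn3. It was higher in 5 of 5 pairs, and the groups overlapped through shOpn3 replicate 5 (84.2) and shControl replicate 2 (101). The log2 fold change was 0.70 (SE 0.214; adjusted p = 0.0394), and the call was the least stable of the 13. It was lost in 14 of the 23 alternative fits, among them edgeR's quasi-likelihood test and the omission of any 1 sample other than shControl replicate 2 or shOpn3 replicate 5, where the adjusted p lay between 0.0519 and 0.0936. Htr4 and Htr5a each overlap a long non-coding RNA gene in the RefSeq annotation. The other Gs-coupled serotonin receptor tested, Htr6, was at 13.0 ± 3.204 and 18.1 ± 4.241 (SD, n = 5 each; log2 change 0.45, adjusted p = 0.256).

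The Gi-coupled type 1 receptors did not pass the limma test of all samples without the block. Htr1a, the autoreceptor of serotonin neurons and a widespread postsynaptic receptor, had 65.1 to 108 normalized counts in shControl (median 74.9) and 77.3 to 161 in shOpn3 (median 127), with a log2 change of 0.63 ± 0.207 SE (adjusted p = 0.0533). The groups overlapped in shOpn3 replicate 4 alone, at 77.3. Without that sample or without shControl replicate 1 Htr1a passed, with an adjusted p of at most 0.0279, and with the replicate block the adjusted p was 0.0226. It also passed by edgeR and DESeq2. Htr1b, which also sits on axon endings, was at 160.0 ± 32.9 and 216 ± 39.4 (SD, n = 5 each; log2 change 0.43, adjusted p = 0.0858). Its adjusted p was 0.0439 with the block and at most 0.0495 without shControl replicate 1 or shOpn3 replicate 2. Htr1d was at 21.2 ± 5.07 and 25.9 ± 8.10, and Htr1f at 29.0 ± 11.6 and 40.3 ± 12.3 (SD, n = 5 each), with log2 changes of 0.26 and 0.51 and an adjusted p of 0.525 and 0.274. Htr3a, the channel subunit, was at 186 ± 27.5 and 229 ± 54.3 (SD, n = 5 each; log2 change 0.28, adjusted p = 0.310), while its partner subunit Htr3b had at most 2 reads in any sample.

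Of the dopamine receptors, 1 of 4 tested passed, beside 18.8% of all genes tested. Drd1 (ENSRNOG00000023688), the main Gs-coupled dopamine receptor, had 314, 266, 282, 246 and 394 normalized counts in shControl and 605, 567, 637, 489 and 611 in shOpn3. The lowest shOpn3 sample lay above the highest shControl sample. Drd1 rose from 300.2 ± 57.8 to 582 ± 57.8 (SD, n = 5 each; log2 change 0.97 ± 0.131 SE; adjusted p = 0.000603). Drd2, the Gi-coupled receptor that restrains dopamine and prolactin release, had 185, 269.6, 270.4, 215 and 111 in shControl and 198, 183, 149.5, 132 and 257 in shOpn3, with a log2 change of -0.16 ± 0.250 SE (adjusted p = 0.703). Its groups overlapped almost fully. Drd3, a Gi-coupled receptor, was at 22.3 ± 7.80 and 35.1 ± 10.4 and was higher in 5 of 5 pairs. Drd5, coupled to Gs, was at 19.5 ± 12.2 and 28.5 ± 5.19 (SD, n = 5 each). Their log2 changes were 0.64 and 0.66 (adjusted p = 0.149 and 0.178). In Drd5 the highest sample was shControl replicate 1 (40.8, with 17.8 next in its group), and without it the adjusted p was 0.0182. Drd4 had at most 1 read in any sample.

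Drd1 and Drd2 mark the 2 classes of striatal spiny neuron, so a list of 7 other spiny neuron genes was set beside them. Of these 1 was higher and 2 were lower in shOpn3 (Adora2a and Rgs9), beside 10.4% higher and 8.48% lower of all genes tested. The median log2 fold change of the 7 genes was -0.13. Their summed level was 6916 to 9947 normalized counts in shControl and 7148 to 8306 in shOpn3, so the sums overlapped.

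Among the alpha adrenergic receptors 2 of 6 tested genes rose, beside 10.4% of all genes tested. Adra2a (ENSRNOG00000047545), the Gi-coupled autoreceptor on noradrenergic endings, had 401, 485, 441, 525 and 431 normalized counts in shControl and 694, 547, 578, 581 and 641 in shOpn3. The difference was modest but the groups did not overlap (log2 change 0.41 ± 0.101 SE; adjusted p = 0.0134). Without both samples of replicate number 1 the adjusted p was above the threshold, as it was without both samples of number 5, reaching at most 0.0676. Adra2c, of the same Gi-coupled class, had a log2 change of 0.68 ± 0.306 SE (adjusted p = 0.147), with 119 and 102 normalized counts in shControl replicates 1 and 5 and at most 49.9 in the other 3. Its adjusted p was 0.0217 with the block and 0.0493 without shControl replicate 1. Adra2b was at 35.8 ± 13.6 and 35.1 ± 14.2 (SD, n = 5 each; log2 change -0.05, adjusted p = 0.943).

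Alpha-1 receptors are coupled to Gq, and through them noradrenaline excites magnocellular neurons. They gave 1 call among 3 genes, beside 18.8% of all genes tested. Adra1d (ENSRNOG00000021256) had 24.5, 10.2, 19.4, 12.2 and 19.0 normalized counts in shControl and 32.6, 38.2, 27.1, 26.1 and 40.1 in shOpn3. All shOpn3 samples lay above all shControl samples, the nearest being 24.5 and 26.1 (log2 change 0.95 ± 0.259 SE; adjusted p = 0.0229). Its call was lost without shControl replicate 2 or 4 or shOpn3 replicate 2 or 5 (adjusted p from 0.0531 to 0.0612), and also with quantile normalization and without both samples of replicate number 5, with an adjusted p of up to 0.0718. Adra1a was at 208 ± 40.8 and 228 ± 73.8 (SD, n = 5 each; log2 change 0.10, adjusted p = 0.773). Adra1b was at 59.1 ± 12.3 and 57.4 ± 3.27 (SD, n = 5 each; log2 change -0.02, adjusted p = 0.945). The difference between the 3 alpha-1 genes was not tested. Of the beta adrenergic receptors, which are coupled to Gs, Adrb1 had 2 to 12 reads per sample and Adrb3 at most 2.

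No histamine receptor passed the limma test without the block (0 of 3 tested, with 1 at an unadjusted p under 0.05, 1 called by DESeq2 and 0 by edgeR). By that limma test 18.8% of all genes tested passed. Hrh1, the Gq-coupled receptor through which histamine excites vasopressin neurons, had 375, 339.9, 308, 328 and 447 normalized counts in shControl and 529.6, 451, 418, 413 and 494 in shOpn3. It was higher in 5 of 5 pairs, and of the shControl samples only replicate 5 (447) reached into the range of shOpn3. The log2 fold change was 0.36 (SE 0.119; adjusted p = 0.0518), with 0.0105 under the block and 0.0156 without shControl replicate 5. Hrh3, the Gi-coupled receptor on histaminergic and other nerve endings, was also higher in 5 of 5 pairs (321 to 429, 187 to 280.4, 162 to 214, 132 to 183 and 218 to 249). The spread between replicate numbers was larger than the difference (log2 change 0.41 ± 0.257 SE; adjusted p = 0.304, and 0.0120 with the block). Hrh2, coupled to Gs, was at 120.2 ± 14.1 and 123 ± 19.7 (SD, n = 5 each; log2 change 0.03, adjusted p = 0.930). Hrh4, a receptor of blood cells, had at most 1 read in any sample.

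Of the 5 muscarinic receptors tested 3 were higher, beside 10.4% of all genes tested. The families are small and of unequal size, and their shares were not compared by a test. Chrm3 (ENSRNOG00000049410), a Gq-coupled receptor, had 551, 571, 459, 511 and 639 normalized counts in shControl and 1796, 1728, 1426, 1031 and 1550 in shOpn3. The lowest shOpn3 sample was replicate 4, and it still lay above every shControl sample. Chrm3 rose from 546 ± 67.2 to 1506 ± 303 (SD, n = 5 each; log2 change 1.44 ± 0.146 SE; adjusted p = 0.000168), and an unnamed long non-coding RNA gene overlaps it in the RefSeq annotation.

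Chrm1 (ENSRNOG00000018385), the Gq-coupled receptor of forebrain neurons, had 241, 40.7, 35.7, 41.2 and 192 normalized counts in shControl and 625, 358, 365, 251 and 415 in shOpn3. The shControl samples fell apart, with replicates 1 and 5 several times higher than the other 3, and in shOpn3 the same 2 numbers were the highest. Each pair was nevertheless higher in shOpn3, and the lowest shOpn3 value (251) lay just above the highest shControl value (241). The log2 fold change was 2.30 (SE 0.521; adjusted p = 0.00920). Over the 23 alternative fits it lay between 1.87 and 3.27, with an adjusted p of at most 0.0256. The lowest value was that of DESeq2. The highest came without shControl replicates 1 and 5, a fit added after these values were seen (limma adjusted p = 3.55e-05), and 15 receptor genes passed in that fit.

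Chrm4 (ENSRNOG00000017556), coupled to Gi, had 111, 51.9, 43.9, 71.2 and 82.3 normalized counts in shControl and 175, 162, 137, 111 and 186 in shOpn3. Only the lowest shOpn3 sample reached the level of the highest shControl sample (log2 change 1.14 ± 0.243 SE; adjusted p = 0.00650). Chrm4 overlaps the gene of the growth factor midkine, Mdk, in the RefSeq annotation, and Mdk had a log2 change of -0.08 ± 0.172 SE (adjusted p = 0.801). Chrm5, the Gq-coupled receptor known from dopamine neurons, was at 270.0 ± 61.5 and 375 ± 64.7 (SD, n = 5 each) and was higher in 5 of 5 pairs (log2 change 0.49; adjusted p = 0.0839, and 0.0387 with the block). Its gene overlaps that of Aven in the RefSeq annotation. Chrm2, the Gi-coupled autoreceptor of cholinergic neurons, was at 544 ± 188 and 513 ± 154 (SD, n = 5 each; log2 change -0.06, adjusted p = 0.905). It was higher in 2 pairs and lower in 3.

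Markers of cortical projection neurons also differed between the groups. Of 5 tested, 3 were higher in shOpn3, beside 10.4% of all genes tested. The 3 were Slc17a7, the vesicular glutamate transporter of the cortex, Neurod6 and Neurod2, while the other 2 did not pass. Emx1, at 2 to 15 reads, was under the limit for testing, and Neurod2 had 0 reads in shControl replicate 2. Slc17a7 had 253, 56.0, 61.2, 229 and 379.8 normalized counts in shControl and 1046, 928, 1991, 556 and 1566 in shOpn3 (log2 change 2.88 ± 0.528 SE; adjusted p = 0.00285). The 6 markers summed to 376 to 549 in shControl and 757 to 2413 in shOpn3. The part of cortical tissue in the rise of Chrm1, Chrm3, Chrm4, Htr2a and Drd1 was not tested.

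**Figure D2:**
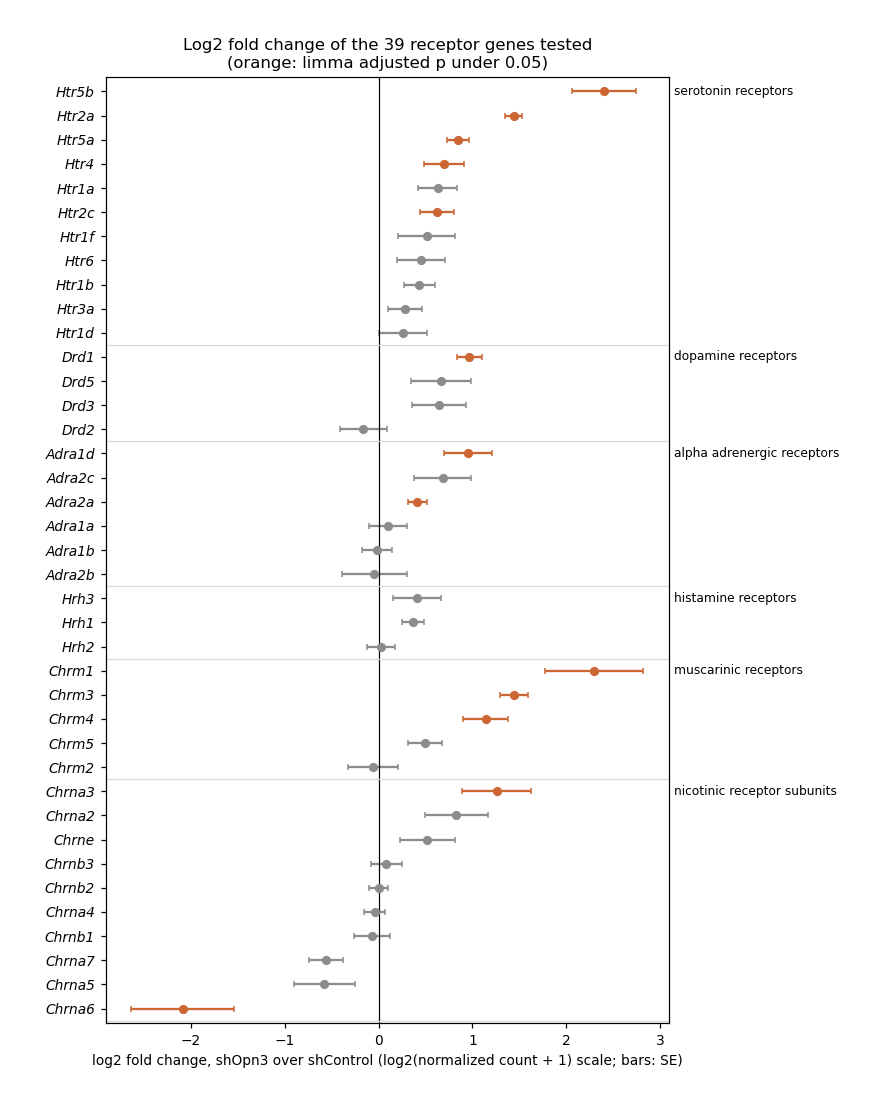
Log2 fold change of shOpn3 over shControl on the log2(normalized count + 1) scale (horizontal axis; points with SE, n = 5 each) for the 39 receptor genes tested, by family. Orange marks a limma adjusted p under 0.05. All 11 serotonin receptor genes lie right of 0, whereas the nicotinic subunits spread from -2.08 (Chrna6) to 1.26 (Chrna3).

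Of the 10 nicotinic subunits tested, 1 was higher, 1 was lower and 8 did not pass, with a median log2 fold change of -0.02. Among all genes tested 10.4% were higher and 8.48% were lower. Chrna4 and Chrnb2, which together form the commonest nicotinic receptor of the brain, did not pass and had log2 changes near 0. Chrna4 was at 957 ± 135 and 924 ± 85.0 (SD, n = 5 each; log2 change -0.04 ± 0.111 SE; adjusted p = 0.829). Chrnb2 was at 1149 ± 147 and 1144 ± 83.8 (SD, n = 5 each; SE of the log2 change 0.0962, adjusted p = 0.999).

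Chrna7, which forms the fast, calcium-permeable receptor that carries nicotinic responses in vasopressin neurons, had 1928, 2337, 2522, 2538 and 1294 normalized counts in shControl and 1576, 1661, 1539, 1219 and 1089 in shOpn3. It was lower in 5 of 5 pairs, and the groups overlapped because shControl replicate 5 (1294) was low. The log2 fold change was -0.56 (SE 0.185; adjusted p = 0.0528). It passed with the block (adjusted p = 0.00835), by edgeR and DESeq2, with TMM scaling and without shControl replicate 5 (adjusted p = 0.00433). The same sample had the lowest Opn3 of its group (261). It also had the lowest sum of general neuronal markers (130156) and the highest of oligodendrocyte markers (1246220) in shControl. The part of any of these in its Chrna7 level was not tested. Chrna5, an accessory subunit, was at 56.5 ± 19.4 and 38.5 ± 16.6 (SD, n = 5 each) and was also lower in 5 of 5 pairs (log2 change -0.58; adjusted p = 0.248, and 0.0382 with the block).

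Chrna6 (ENSRNOG00000012283), a subunit typical of dopamine neurons and the visual pathway, was the 1 receptor gene that fell in the limma fit of all samples without the block, while Chrna7 also passed in the other fits named above. It had 39.8, 19.3, 16.3, 4.68 and 35.9 normalized counts in shControl and 3.84, 7.43, 0.935, 5.80 and 3.08 in shOpn3. The shControl samples were scattered, and replicate 4 (4.68) lay within the range of shOpn3. Counts this low limit the precision, since the shOpn3 samples held 1 to 7 reads and 2 of them no more than 3. The log2 fold change was -2.08 (SE 0.549; adjusted p = 0.0195), and the call was lost without shOpn3 replicate 3 (-1.77, adjusted p = 0.0521) and without both samples of replicate number 1 or of number 5 (adjusted p up to 0.0866). Chrnb3, a subunit that often assembles with the product of Chrna6, was at 513 ± 93.9 and 548 ± 128 (SD, n = 5 each; log2 change 0.08, adjusted p = 0.777).

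Chrna3 (ENSRNOG00000013829), the main alpha subunit of autonomic ganglia, had 16.3, 15.3, 11.2, 19.7 and 5.27 normalized counts in shControl and 39.3, 28.7, 37.4, 15.5 and 45.2 in shOpn3. It was higher in 4 of 5 pairs and lower in the pair of replicate 4 (log2 change 1.26 ± 0.365 SE; adjusted p = 0.0307). This call was lost without shControl replicate 3 or 5 or shOpn3 replicate 1, 2, 3 or 5 (adjusted p from 0.0501 to 0.0788). It was also lost with quantile normalization, without both samples of replicate number 1 or of number 5, and without shControl replicates 1 and 5, with an adjusted p of up to 0.117 and a log2 change down to 0.85 over all alternatives. Chrna3 and Chrnb4 share an overlapping long non-coding RNA gene in the RefSeq annotation, and Chrnb4 itself had 2 to 12 reads per sample. Chrna2 was at 21.4 ± 7.47 and 40.6 ± 19.4 (SD, n = 5 each; log2 change 0.83, adjusted p = 0.111, and 0.0400 without shOpn3 replicate 4). Of the muscle subunits, Chrnb1 was at 55.9 ± 10.9 and 53.4 ± 10.8 and Chrne at 13.9 ± 4.36 and 20.9 ± 7.76 (SD, n = 5 each; log2 changes -0.07 and 0.52). Chrna1 (3 to 14 reads) and Chrnd, Chrna9 and Chrna10 (at most 2 reads each in any sample) were under the limit for testing.

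Sorted by the way they signal, a grouping made after the values were known, the calls were 5 of 9 for receptors coupled to Gq, 2 of 5 for Gs, 3 of 13 for Gi and 2 of 11 for the channel subunits. Htr5b, whose coupling is less well known, was left out of this count. Of all genes tested 18.8% were called. The channel calls were Chrna3, which was higher, and Chrna6, which was lower, and the calls of the other groups were all higher. In the order Gq, Gs, Gi and channel subunits, median log2 fold changes were 0.62, 0.66, 0.43 and -0.00. All 5 Gs-coupled genes, 8 of 9 Gq-coupled and 10 of 13 Gi-coupled genes had a log2 fold change above 0, against 5 of 11 channel subunits. The difference between these groups was not tested.

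**Figure D3:**
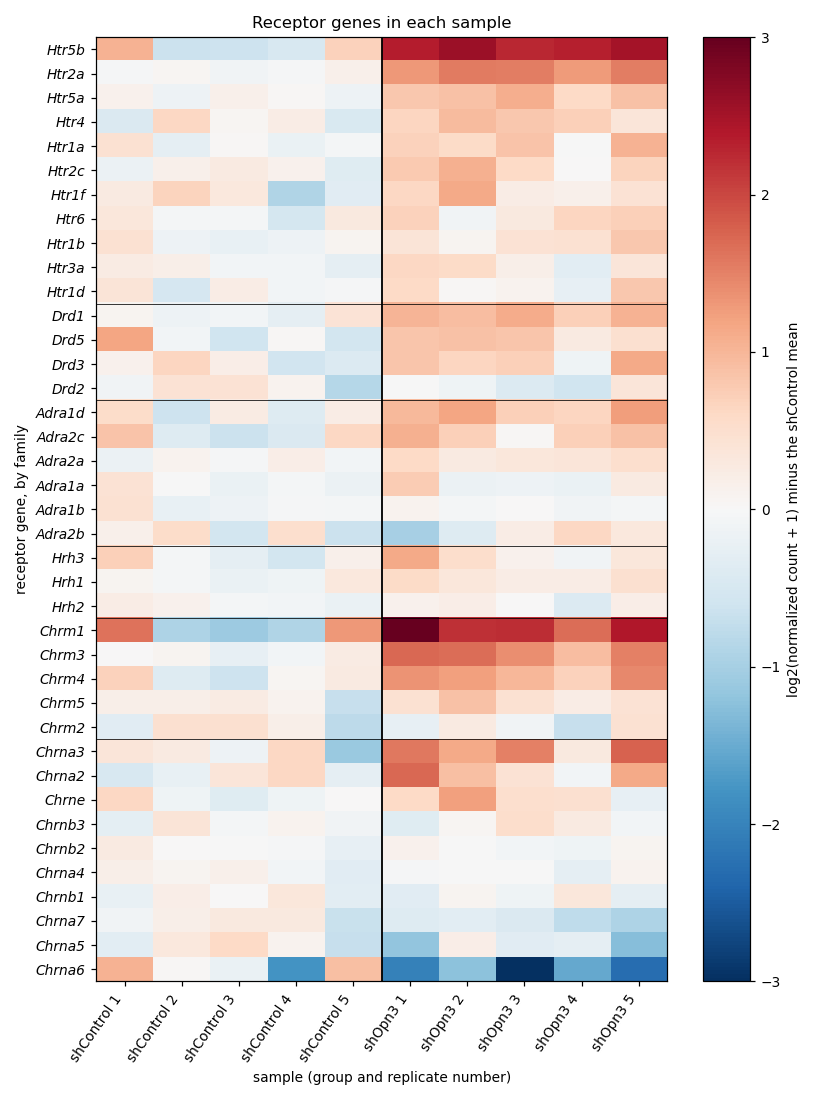
Difference of log2(normalized count + 1) from the shControl mean (colour; the scale ends at -3 and 3) for the 39 receptor genes tested (vertical axis, by family) in the 10 samples (horizontal axis). Htr2a, Htr5a, Htr5b, Drd1 and Chrm3 are red in all 5 shOpn3 samples, and Chrm1 is raised in shControl replicates 1 and 5 as well.

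Of 18 tested genes that make, store, take up or break down the transmitters, 3 were higher, 2 were lower and 13 did not pass (median log2 fold change 0.02), beside 10.4% higher and 8.48% lower of all genes tested. Tph1, a tryptophan hydroxylase of serotonin synthesis known mainly outside the brain, had 2.04, 15.3, 11.2, 8.43 and 2.11 normalized counts in shControl and 15.4, 38.2, 34.6, 40.6 and 30.8 in shOpn3 (log2 change 2.15 ± 0.491 SE; adjusted p = 0.00956). Ddc, the decarboxylase shared by serotonin and dopamine synthesis, fell from 714 ± 211 to 395 ± 51.7 (SD, n = 5 each; log2 change -0.81, adjusted p = 0.0110). Ache, which breaks down acetylcholine, fell from 3760 ± 453 to 2753 ± 475 (SD, n = 5 each; log2 change -0.46, adjusted p = 0.0246). With the replicate block 3 were higher and 5 were lower, beside 15.1% higher and 15.2% lower of all genes tested. The 3 genes added, named after their values were seen, were lower in 5 of 5 pairs. They were Th, the tyrosine hydroxylase of dopamine and noradrenaline synthesis (log2 change -1.31, adjusted p = 0.116, and 0.00296 with the block), the vesicular monoamine transporter Slc18a2 (-1.02, 0.0610 and 0.00172) and Bche, a cholinesterase (-0.29, 0.191 and 0.0218).

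Among G alpha subunits, phospholipases and potassium channels, 6 of 20 rows tested were higher and 3 were lower (median log2 fold change 0.10), beside 10.4% higher and 8.48% lower of all genes tested. The 20 rows stand for 19 gene names. Both rows of Gnas, the gene of the Gs alpha subunit, were among the lower ones (log2 change -0.93 and -0.52, adjusted p = 0.00783 and 0.00869). Gnas was named after its values were seen. Kcnj3, a channel subunit opened by Gi-coupled receptors, rose from 521 ± 58.5 to 1013 ± 152 (SD, n = 5 each; log2 change 0.95 ± 0.121 SE; adjusted p = 0.000427). Gna15, a Gq-class subunit of blood-derived cells, rose from 124 ± 20.3 to 293 ± 90.9 (SD, n = 5 each; log2 change 1.19, adjusted p = 0.00251). Gnai1, a Gi subunit, fell from 4806 ± 484 to 3521 ± 309 (SD, n = 5 each; log2 change -0.45, adjusted p = 0.00452).

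In the limma fit without the block, 10.4% of all genes tested were higher and 8.48% were lower. Of 13 receptor kinases, arrestins and regulators of G protein signalling tested, 1 was lower and 0 were higher in that fit. The lower one was Rgs9, a regulator known from the striatum, which fell from 717 ± 62.6 to 471 ± 63.2 (SD, n = 5 each; log2 change -0.61, adjusted p = 0.00223). With the block 1 was higher (Arrb1) and 2 were lower (Rgs9 and Grk6), beside 15.1% higher and 15.2% lower of all genes tested. Of 13 assembly and binding partners tested 2 were higher and 0 were lower, and with the block 2 were higher and 3 were lower (Caly, Ric8a and Ly6h), the genes added by the block being named after their values were seen. S100a10, a protein that binds Htr1b and Htr4 receptors, rose from 1786 ± 200.5 to 2520 ± 329.6 (SD, n = 5 each; log2 change 0.49, adjusted p = 0.00674). Musk, a kinase of the neuromuscular junction, had 1 to 21 reads per sample and a log2 fold change of 1.36 (limma adjusted p = 0.0488).

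Other cell types also differed between the groups. The counts below stand beside 10.4% higher and 8.48% lower of all genes tested, and 15.1% and 15.2% with the block. Magnocellular markers fell in 9 of 9 genes, with summed levels of 72063 to 185489 in shControl and 21447 to 47619 in shOpn3. Microglial markers were higher in 9 of 10 genes, with sums of 15987 to 19650 in shControl and 25943 to 50203 in shOpn3. Markers of activated macrophages were higher in 6 of 6 genes, of T cells in 5 of 7 and of astrocytes in 4 of 8, and oligodendrocyte markers were lower in 8 of 8. General neuronal markers were higher in 1 and lower in 2 of 8 genes, with sums of 130156 to 185864 and 126808 to 214232 that overlapped. Endothelial and mural markers (0 of 7, and 1 with the block) and the genes of glutamate and GABA neurons (0 of 4) gave no call by limma without the block. The part of these shifts in the receptor values was not tested.

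**Figure D4:**
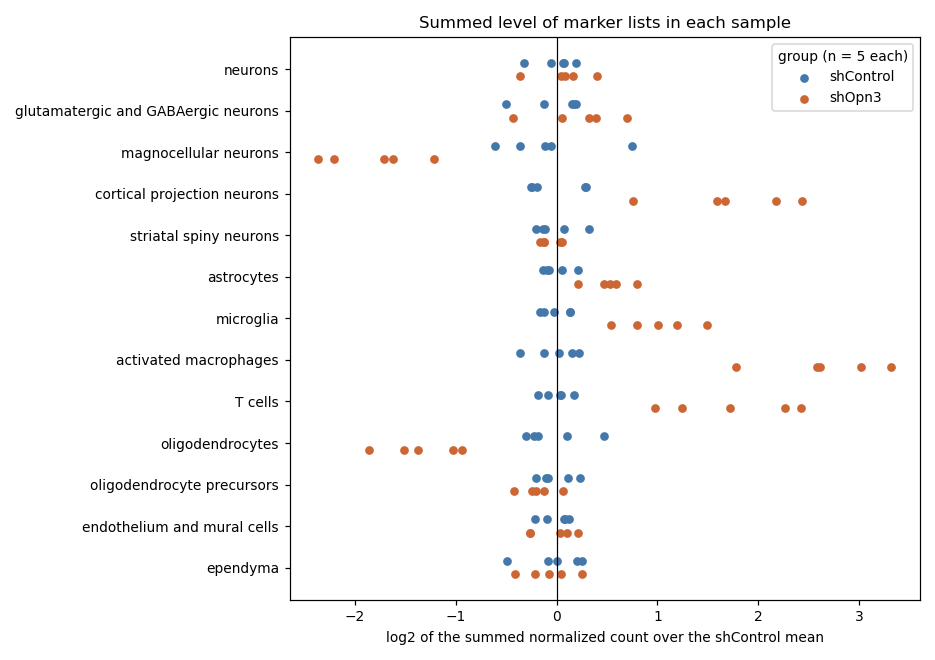
Log2 of the summed normalized count of each marker list over its shControl mean (horizontal axis) in every shControl (blue) and shOpn3 (orange) sample, n = 5 each. The groups do not overlap for magnocellular neurons and oligodendrocytes, which were lower, and for cortical projection neurons, microglia, activated macrophages and T cells, which were higher.

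The authors' deposited table, an unpaired DESeq2 comparison, listed 16 of 43 receptor genes at an adjusted p under 0.05, 14 higher and 2 lower. It held all 13 genes named above with the same sign, and in addition Htr1a (log2 fold change 0.65), Hrh1 (0.36) and Chrna7 (-0.58). In the authors' deposited table Htr2a stood at 1.44 (standard error 0.0938) and Chrm3 at 1.46 (0.156) on the log2 scale. Chrm1 stood at 1.87 (0.617) there, below its 2.30 by limma.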

How the data were processed

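RNA was sequenced from 10 supraoptic nuclei, 5 per group. The submitters' processing notes name FastQC, STAR, featureCounts and DESeq2. The genome build, the annotation release and the use of strand are not given in the sources used here, so genes that overlap others are uncertain. The authors deposited a signal per gene and sample, namely read counts divided by 1 size factor per sample. They also deposited, per the file headers, log2 fold changes with standard errors, a Wald score, and p-values. Every value was a whole multiple of its sample's step within 0.01 reads (100% of values in each of the 10 samples), so whole reads were recovered. A DESeq2 (1.42.0) fit of these reads with the group alone gave the authors' log2 fold changes and adjusted p-values, with 0 genes differing by more than 1e-04.

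Values were analysed as log2(normalized count + 1) for genes with a mean of at least 10 (15597 genes) with limma 3.58.1 in R 4.3.3 (eBayes with trend, group only, two-sided, Benjamini-Hochberg over all genes tested, threshold 0.05). On this scale the added 1 can draw the change of a gene with few reads towards 0. By DESeq2 the log2 change of Chrna6 was -2.47, against -2.08 by limma. That of Htr5b was 2.36, against 2.40 by limma, so its value was not smaller on this scale. edgeR 4.0.16 (quasi-likelihood) and DESeq2 on the recovered reads were alternatives, with other scalings, pseudocounts, filters, the replicate block and the omission of samples. The number of genes called by edgeR was 3025. The limma fits with and without the block and the edgeR test were tested on simulated data. Samples of equal number departed from their group means together in all 5 pairs (r from 0.12 to 0.44, against -0.45 to 0.36 with a median of -0.21 for unequal numbers), although shOpn3 replicate 4 correlated more with shControl replicate 5 (0.17) than with its own number (0.12). The labels say that each rat gave a nucleus to both groups but not that equal numbers mark 1 rat, so the pairing comes from the data.

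All receptor genes analysed were named, those that passed in full. Of each partner list up to 3 genes with the lowest adjusted p were named, and Opn3, Avp and Oxt were always named. Slc17a7 and the other marker genes named, as well as Mdk, were chosen after their values were seen. The receptor genes and all lists were chosen with earlier results of these data known. Sequences are from RefSeq (GRCr8), in which all 50 receptor names were found. Some genes, 1 of them a receptor gene that passed the naming rule, are not reported here.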

Additional observations from a re-analysis of the deposited data

Results flagged for a closer look

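Dixon's test was applied to 102 groups of 5 values (51 genes in 2 groups), and 5 held a value that stood apart. At a rate of 1 in 20, chance alone gives 5.1. All 5 lay in shControl, and 4 of them in replicate 1. Adra1a in that sample was at 278 normalized counts (next 202), Adra1b at 80.5 (next 57.1) and Drd5 at 40.8 (next 17.8). Oxt, the oxytocin gene, was at 56716 there (next 21354). Chrm5 was at 161 in shControl replicate 5, where the next lowest sample had 283. None of these 4 receptor genes passed the limma test on all samples without the replicate block, and Drd5 passed when shControl replicate 1 was left out.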

How the results depend on the processing

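The 7 genes Htr2a, Htr5a, Htr5b, Drd1, Chrm1, Chrm3 and Chrm4 passed under every alternative in which they were tested (22 for Htr5b, 23 for the others). Over the 13 called genes, 250 alternative values stayed past the threshold, 44 did not and 0 changed sign. The number of genes called was 4726 by limma and 4777 by edgeR with the replicate block, and each called 21 receptor genes, 3 of them lower. Among receptor genes lower in shOpn3, edgeR, DESeq2 and TMM scaling called 2, and leaving out replicate 1 of both groups left 0. A mean of at least 50 also left 0, but Chrna6 (mean 13.7) is then not tested, so this is no test of its call. Leaving out samples moved the number of genes called between 1973 (without shOpn3 replicate 3) and 3488 (without shControl replicates 1 and 5), that of receptor genes between 9 and 15 for the same omissions, and that of lower ones between 0 and 2. The cause of these moves was not tested. The median log2 change over the receptor genes lay between 0.33 (quantile normalization) and 0.55 (without shControl replicate 1).

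All changes of sign were in genes that were not called. When samples of 1 group were left out, the log2 change spanned 0 for Adra1a (-0.066 to 0.21), Adra1b (-0.076 to 0.11), Adra2b (-0.21 to 0.19), Chrm2 (-0.44 to 0.10), Chrna4 (-0.13 to 0.012), Chrnb1 (-0.25 to 0.019), Chrnb2 (-0.062 to 0.066), Chrnb3 (-0.053 to 0.19) and Hrh2 (-0.026 to 0.13). With quantile normalization it was 0.015 for Chrnb2 and -0.10 for Hrh2. Without replicate 1 of both groups it was 0.065 for Adra1b, 0.23 for Adra2b, 0.0029 for Chrna4 and 0.035 for Chrnb2. Without replicate 5 of both groups it was -0.068 for Hrh2.

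The omission of samples reduces what the test can detect, and genes such as Chrna6, with as few as 1 read in a sample, are limited by counting error. Htr7 and Chrng were not analysed here.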

Other observations

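Ppp1r1b, the gene of the dopamine-regulated phosphatase inhibitor DARPP-32, was looked at after Chrm1 was seen to be high in shControl replicates 1 and 5. It was at 1191 and 1306 normalized counts in those 2 samples and at 676, 620.5 and 744 in shControl replicates 2, 3 and 4. In shOpn3 it lay between 871 and 1060. No test was made of this choice.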
